A study of Mus musculus with 8 samples.

Results

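A set of 10 imprinted genes of the embryonic growth programme was followed through a PTH treatment of cultured mouse osteoblasts. The 10 genes were H19, Meg3, Rian, Dlk1, Peg3, Zim1, Plagl1, Peg10, Mest and Ndn, taken by symbol from the 47706 entries of the deposited gene count table. Each symbol had 1 entry, and all 10 genes were expressed highly enough to be tested, among 16736 genes tested in all. The cells were primary calvarial osteoblasts, that is, bone-forming cells released by collagenase from the skull vault of newborn mice. They were differentiated for 7 days, kept briefly in low serum, and then given either the N-terminal peptide of parathyroid hormone (PTH, 4 samples) or vehicle (PBS, 4 samples) for 24 hours. The labels give no strain, sex or genotype, and nothing states whether the 4 samples of a treatment came from separate cultures or animals, so that all p-values measure only the spread between these samples. The labels name the 7 days an adipogenic differentiation, whereas the design text and the methods describe osteoblasts.

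Imprinted genes are expressed mainly from 1 parental allele, which is set by DNA methylation placed in the egg or the sperm at a control region shared by a cluster of genes. Many of them control fetal growth and fall after birth, and several are used again in stem and progenitor cells, including those of the skeleton. PTH acts on osteoblasts through the receptor Pth1r, which raises cyclic AMP and activates factors that bind the cAMP response element, TGACGTCA. Reads were not assigned to parental alleles here, so each value is the sum of both.

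The libraries held 33605610 to 56090654 counts each, with PTH replicate 2 the smallest and PTH replicate 1 the largest. Levels are given as CPM, counts scaled to the library size after TMM normalization. Osteoblast markers, led by Col1a1 and Col1a2, summed to 86634 to 125128 CPM per library (3 of 10 lower with PTH, neither of these 2 among them), and adipocyte markers, led by Fabp4 and Plin1, to 24.0 to 48.5 CPM. The response to PTH was present in the libraries as labelled. Tnfsf11, the osteoclast-inducing cytokine RANKL and a known PTH target, was at 1.41 ± 0.364 CPM with vehicle and 127 ± 20 CPM with PTH (SD, n = 4 each, adjusted p = 4.28e-11 by edgeR), and Pth1r fell from 136 ± 21.1 to 83.6 ± 11.6 CPM (adjusted p = 4.43e-04 by edgeR). Macrophage markers summed to 925 to 1492 CPM with vehicle and 1454 to 1904 CPM with PTH (2 of 6 higher, including Lyz2 but not Adgre1). Chondrocyte markers summed to 317 to 332 and 370 to 486 CPM (2 of 5 higher, including Col2a1 but not Sox9). The neuronal tubulin gene Tubb3 was higher with PTH, at 9.73 ± 1.75 CPM with vehicle and 27.4 ± 4.93 CPM with PTH. Pericyte markers, led by Notch3 and Cspg4, summed to 109 to 120 and 96.4 to 97.2 CPM (1 of 5 lower, Notch3). Osteoclast markers, led by Ctsk and Acp5, summed to 411 to 590 CPM over all 8 libraries with none of 4 tested called and Dcstamp at 0. Endothelial markers, led by Tek and Kdr, summed to at most 6.96 CPM with Emcn at 0 (of 4 tested, Kdr higher and Tek lower), and skeletal muscle markers, led by Pax7 and Acta1, to at most 15.2 CPM with Myf5 at 0 (of 4 tested, 2 higher, including Pax7, and Acta1 lower). Proliferation genes, led by Pcna and Top2a, summed to 212 to 257 CPM with vehicle and 217 to 251 CPM with PTH (1 of 6 higher, Pcna, and 2 lower). The part of these other cells in the values below was not tested, and in bulk RNA fewer cells of a type cannot be told apart from less RNA per cell.

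The promoters of Meg3 and Peg3 both held the complete cAMP response element. RefSeq starts were given for 8 of the 10 genes (11 starts), without H19 and Peg10, and the 250 bases upstream of each were searched on both strands. Meg3 and Peg3 were the 2 of 8 genes with TGACGTCA, which 1 window of each held among the 11 windows searched. Over all genes 1.55% of the 32851 promoter windows held it, a share per window and not per gene. The upstream window of the main Meg3 start (GRCm38, chr12:109540746-109540995, plus strand) is shown beside that of its neighbour Dlk1 (GRCm38, chr12:109452573-109452822, plus strand), because both genes lie in 1 imprinted domain and differ in this element. Capitals mark the complete element in Meg3 and the shorter element TGACG in Dlk1, a sequence that 17.8% of all windows held on either strand. For Peg3 (minus strand, chr7:6730579-6730608) and for the imprinted gene Zdbf2 (plus strand, chr1:63273199-63273228), the 30 bases around the complete element are given.
Meg3 promoter: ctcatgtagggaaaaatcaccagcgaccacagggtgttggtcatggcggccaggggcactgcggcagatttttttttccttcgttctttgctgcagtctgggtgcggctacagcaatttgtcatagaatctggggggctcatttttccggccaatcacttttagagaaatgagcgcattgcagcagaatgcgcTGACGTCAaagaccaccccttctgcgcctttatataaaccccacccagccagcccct
Dlk1 promoter: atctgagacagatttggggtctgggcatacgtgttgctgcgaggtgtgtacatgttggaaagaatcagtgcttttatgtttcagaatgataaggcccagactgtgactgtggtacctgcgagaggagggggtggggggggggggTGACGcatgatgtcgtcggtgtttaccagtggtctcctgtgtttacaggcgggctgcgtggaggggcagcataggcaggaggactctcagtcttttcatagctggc
Peg3 element: actgactccgtTGACGTCAactccgtgcct
Zdbf2 element: cgcaccttcgcTGACGTCAgagctgcagtg

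The first base of the element stood 57 bases before the RefSeq start of Meg3, 178 bases before that of Peg3 and 59 bases before that of the second of the Zdbf2 starts. In Peg3 this position lies just past the annotated start of Usp29, which runs in the opposite direction. The windows of Rian, Zim1, Plagl1, Mest and Ndn held neither the complete nor the shorter element, and the windows of Plagl1, Mest and Ndn lie within their longer GENCODE genes. The match is a description of these letters, and binding was not measured.

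H19, Meg3, Rian and Mest also carry microRNA genes within their transcription units, on the same strand. One mature sequence of each host is shown, because the host RNA is what was counted here and the mature microRNAs were not measured in these poly(A) libraries. Capitals mark the seed (bases 2 to 8), and the 4 seeds differ. The sequences are those of RefSeq on GRCm38, from H19 (chr7:142577112-142577133, minus strand), Meg3 (chr12:109563710-109563731, plus), Rian (chr12:109618305-109618326, plus) and Mest (chr6:30741314-30741336, plus).
miR-675-5p in H19: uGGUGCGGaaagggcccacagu
miR-770-5p in Meg3: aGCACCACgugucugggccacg
miR-370-3p in Rian: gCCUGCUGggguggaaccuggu
miR-335-5p in Mest: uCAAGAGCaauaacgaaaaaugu

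PTH was followed by higher levels of 6 of the 10 genes, with none lower. A gene was called where the p of edgeR's quasi-likelihood test, adjusted after Benjamini and Hochberg over all 16736 genes, was under 0.05. Peg3, Peg10, Rian, Meg3, Zim1 and H19 passed, and Dlk1, Plagl1, Mest and Ndn did not. Of all genes tested, 23.3% were called higher and 22.5% lower, 45.8% in either direction. In 5 members every PTH sample lay above every vehicle sample, against 21.2% of all genes tested (21.8% lay wholly below), and in the other 5 the treatments overlapped. The median log2 fold change of the members was 0.35, whereas that of all genes tested was 0.00 with a median absolute value of 0.35. The summed mean level of the 10 genes was 3913 CPM with vehicle and 5030 CPM with PTH.

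**Figure D1:**
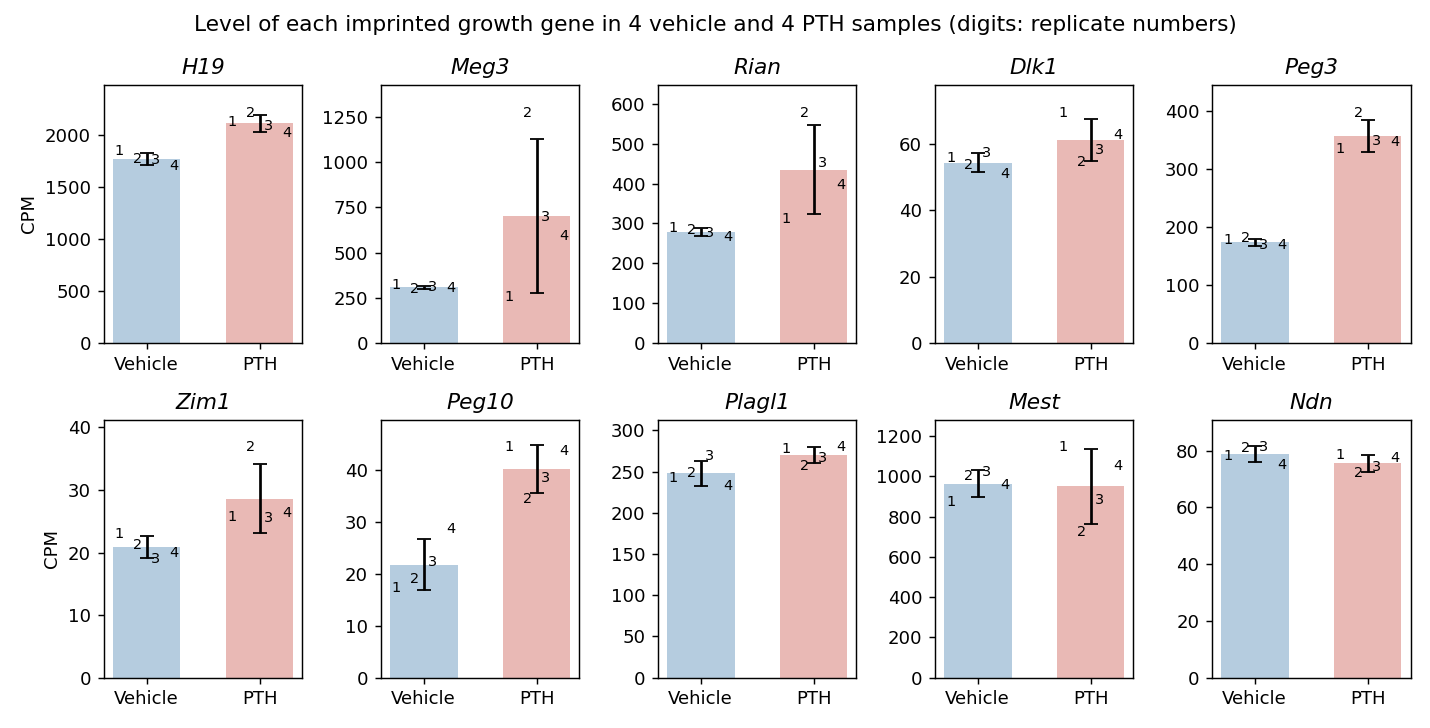
Level of each of the 10 genes in CPM (vertical axes from 0, a different scale in each panel) with vehicle (blue) and PTH (red). Bars are means, error bars are SD over 4 samples, and digits place the replicates. PTH replicate 2 is the highest PTH sample for Meg3 (1275 CPM), Rian (578 CPM), Zim1 (36.8 CPM), H19 and Peg3. It is the lowest PTH sample for Mest (724 CPM), Dlk1, Plagl1, Ndn and Peg10.

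The levels spanned a wide range. On a per-length scale, CPM per kilobase of annotated exon, vehicle samples contained 718 of H19 and 244 of Mest, followed by 31.7 of Plagl1, 21.4 of Ndn, 17.0 of Meg3, 15.3 of Rian, 13.04 of Peg3, 9.63 of Dlk1, 3.26 of Peg10 and 2.58 of Zim1. Among neighbours in that order, the sample ranges overlapped for Peg10 and Zim1 alone. With PTH, on the same scale, Meg3 averaged 38.9, with samples from 13.96 to 70.5, and Peg3 averaged 26.8. The length used was that of all annotated exons of a gene merged. By CPM alone the vehicle order differed, with Meg3 (307) and Rian (279) above Plagl1 (248) and Ndn (78.9).

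H19 and Meg3 are long noncoding RNAs made from the maternal allele. H19 (chr7:142575529-142578143, minus strand) shares its control region with Igf2, the paternally expressed growth factor, and was the most abundant member, 32nd among all genes tested by mean CPM. H19 was at 2122, 2212, 2083 and 2017 CPM in PTH replicates 1 to 4 and at 1845, 1766, 1758 and 1697 CPM in the vehicle replicates. Every PTH sample was above every vehicle sample, by a small margin. The log2 fold change was 0.26 (SE 0.0727, adjusted p = 0.0127). Scaling by library totals, which moves the median of all genes by -0.13 on the log2 scale, gave 0.13 (adjusted p = 0.127), and leaving out vehicle replicate 2 gave 0.25 (adjusted p = 0.0571), so that the call for H19 was lost in both. Igf2, at 2242 ± 210 CPM with vehicle and 2392 ± 268 CPM with PTH, was not called (log2 fold change 0.09, adjusted p = 0.489), and its sign turned under library totals (-0.04) and upper-quartile scaling (-0.02). The ratio of H19 to Igf2 CPM overlapped between the treatments, at 0.792 ± 0.0554 and 0.892 ± 0.129.

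The Dlk1-Dio3 domain on chromosome 12 gave the widest range of responses. It extends over 828 kb and holds 3 members, the protein gene Dlk1 and the noncoding RNA genes Meg3 and Rian. Of its 6 tested genes 5 were higher with PTH, against 23.3% of all genes tested, and Dlk1 was not called. Meg3, Rian and the microRNA host Mirg are counted separately here although they belong to the same maternal transcripts. Independence of the 5 calls was not tested.

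Meg3 (chr12:109541001-109571726, plus strand) encodes a nuclear long noncoding RNA known for growth-restraining activity. The PTH samples contained 252, 1275, 696 and 591 CPM of Meg3 and the vehicle samples 319, 297, 308 and 306 CPM. The vehicle samples were nearly equal, whereas the PTH samples were widely spread, with replicate 1 below every vehicle sample and the other 3 above. The log2 fold change of Meg3 was 1.19 (SE 0.340, adjusted p = 0.0125), while an exact two-sided permutation test on this gene alone gave p = 0.143, against a smallest possible p of 0.0286. Leaving out PTH replicate 2 brought it to 0.75 (adjusted p = 0.0267) and leaving out PTH replicate 1 to 1.47 (adjusted p = 6.99e-05).

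Rian (chr12:109603940-109661716, plus strand), a noncoding RNA that hosts small nucleolar RNAs, lies downstream of Meg3. Rian was at 311, 578, 452 and 397 CPM with PTH and at 288, 284, 277 and 265 CPM with vehicle. The order of the PTH samples was that of Meg3, but here even the lowest was above all vehicle samples. The log2 fold change was 0.64 (SE 0.146, adjusted p = 0.00336), and 0.48 without PTH replicate 2 (adjusted p = 0.00262). The strand setting of the counting is not given in the sources used here. A lincRNA gene annotated on the opposite strand overlaps 3096 bases of the Meg3 locus, so reads of that pair cannot be told apart. Another lincRNA gene overlaps 2011 bases of Rian on the same strand. The assembled loci of Meg3, Rian and Mirg held 4, 11 and 11 entries of the count table, and how reads were divided among these was not tested.

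Mirg, the microRNA host at the far end of the same maternal transcripts, rose more steeply. It was at 14.2, 51.1, 28.4 and 25.3 CPM with PTH and at 6.53, 7.11, 7.76 and 9.29 CPM with vehicle, without overlap (log2 fold change 1.95, SE 0.303, adjusted p = 2.43e-04). The ratio of Meg3 to Mirg CPM was 40.8 ± 6.52 with vehicle and 22.7 ± 3.30 with PTH, and these ratios did not overlap either.

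Dlk1 (chr12:109452823-109463336, plus strand), a transmembrane relative of the Notch ligands that restrains differentiation of mesenchymal progenitors, is expressed from the paternal allele. It was at 69.6, 54.7, 58.3 and 62.7 CPM with PTH and at 55.7, 53.7, 57.4 and 51.0 CPM with vehicle. The treatments overlapped through PTH replicate 2, and Dlk1 was not called (log2 fold change 0.17, SE 0.0799, adjusted p = 0.101). Without that replicate it was called higher (0.23, adjusted p = 0.0277).

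Dio3, the thyroid hormone-inactivating deiodinase at the other end of the domain, was at 107, 88.0, 103 and 111 CPM with PTH and at 4.55, 4.34, 2.54 and 3.63 CPM with vehicle. Every PTH sample was far above every vehicle sample (log2 fold change 4.77, SE 0.157, adjusted p = 2.71e-10), and the gene stood 79th of all genes tested by log2 fold change. The paternally expressed genes at the ends of the domain gave a ratio of Dio3 to Dlk1 CPM of 0.0694 ± 0.0174 with vehicle and 1.67 ± 0.115 with PTH. Rtl1, a paternally expressed gene derived from a retrotransposon, was at 0 to 95 counts per vehicle library and 115 to 360 per PTH library. Rtl1 was called higher with PTH (log2 fold change 2.29, SE 0.710, adjusted p = 0.0195). Its call was lost with DESeq2 (adjusted p = 0.117), without PTH replicate 2 (0.0645) and without vehicle replicate 2 (0.0509), and microRNA genes of the maternal strand are annotated antisense within it.

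**Figure D2:**
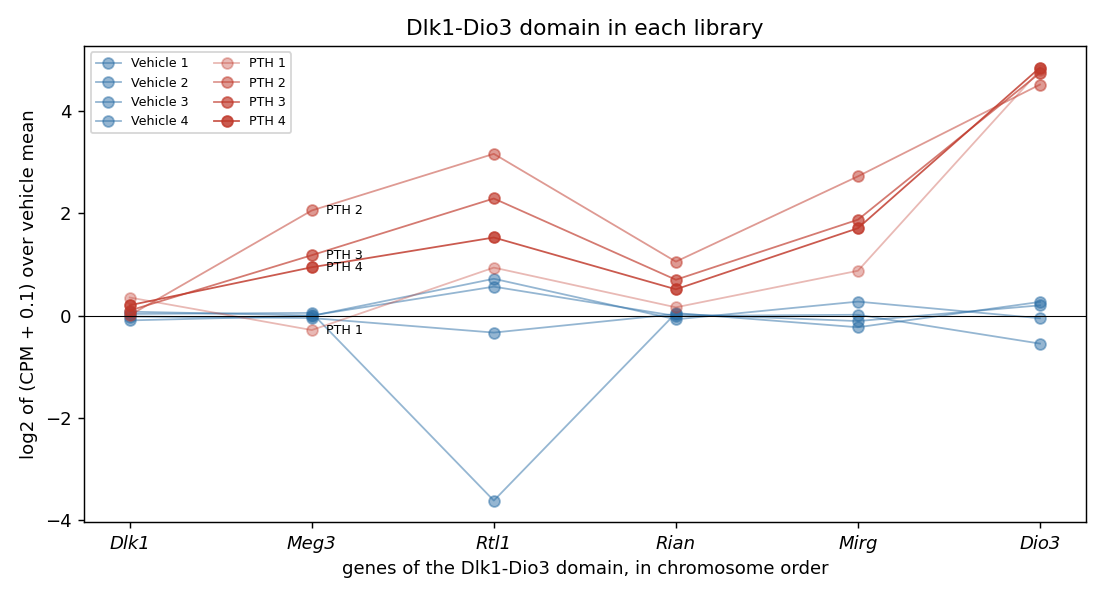
The 6 tested genes of the Dlk1-Dio3 domain in chromosome order, as log2 of CPM plus 0.1 over the vehicle mean, with 1 line per library (PTH red, vehicle blue). The 4 PTH lines separate at Meg3 (252 to 1275 CPM), come together at Dio3 (88.0 to 111 CPM) and lie close to the vehicle lines at Dlk1. The low vehicle point at Rtl1 is replicate 1, with 0 counts.

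In 7 of the 10 genes the PTH samples stood in the order of library size. From the smallest PTH library to the largest (replicates 2, 3, 4 and 1), Meg3, Rian and Peg3 fell at every step, Dlk1, Mest, Ndn and Peg10 rose at every step, and H19, Zim1 and Plagl1 did neither. Over all genes tested, 11.4% fell and 12.3% rose at every step. The ratio of the smallest to the largest PTH library was 5.05 for Meg3, a value that 1.60% of all genes tested reached, and 1.86 for Rian. By gene type the median of this ratio was 1.68 over 1019 long noncoding genes and 0.991 over 13819 protein-coding genes. Neat1 and Malat1, abundant nuclear noncoding RNAs chosen after their values were seen, had the same order, with Neat1 at 308, 1405, 724 and 658 CPM in PTH replicates 1 to 4 and Malat1 at 209, 551, 350 and 319 CPM. Neat1 was higher with PTH (log2 fold change 2.68, adjusted p = 5.79e-05) and Malat1 was not called (0.48, adjusted p = 0.112). Of the long noncoding genes, 13.3% were called higher and 10.4% lower. Among the other imprinted genes called higher, Mirg (ratio 3.61), Rtl1 (4.83), Nnat (3.64) and Zdbf2 (1.28) also fell at every step. Nap1l5 (0.822) and Peg13 (0.776) rose at every step, and the rest did neither. The part of library size or RNA recovery in the values of Meg3, Rian and these other genes was not tested.

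**Figure D3:**
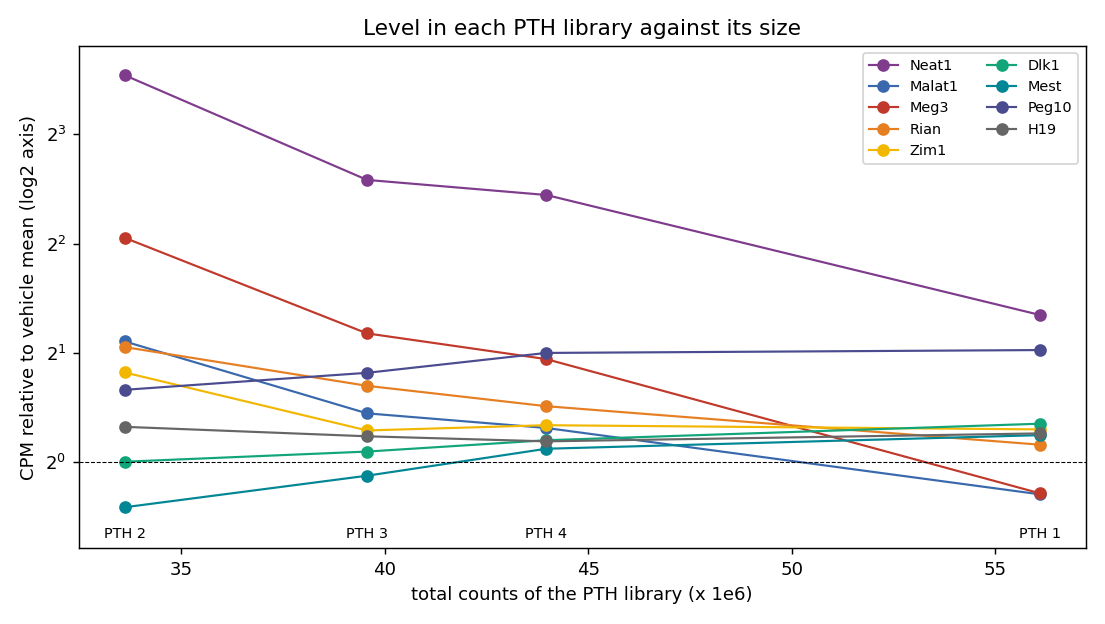
CPM in each PTH library relative to the vehicle mean (log2 axis) against the total counts of that library (units of 1e6), for 7 members and the nuclear RNAs Neat1 and Malat1. Meg3, Rian, Neat1 and Malat1 fall from the smallest library to the largest, Dlk1, Mest and Peg10 rise, and H19 is nearly flat, at 2017 to 2212 CPM.

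Peg3, Zim1 and Plagl1 encode zinc finger proteins. Peg3 (chr7:6703892-6730431, minus strand), a paternally expressed DNA-binding protein, was at 335, 398, 349 and 346 CPM with PTH and at 178, 181, 168 and 169 CPM with vehicle. The samples of each treatment were close together and far from those of the other. Peg3 had the smallest adjusted p of the members, 1.94e-07, with a log2 fold change of 1.04 (SE 0.0709), and passed under all 17 alternatives.

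Zim1 (chr7:6671269-6696450, minus strand), its maternally expressed neighbour, was at 25.7, 36.8, 25.5 and 26.3 CPM with PTH and at 23.0, 21.3, 19.04 and 19.97 CPM with vehicle. All PTH samples were above all vehicle samples, with PTH replicate 2 apart from the other 3. The log2 fold change was 0.45 (SE 0.121, adjusted p = 0.00864), or 0.32 without PTH replicate 2 (adjusted p = 0.00858), and the call was lost with library totals (0.33, adjusted p = 0.0579). The ratio of Peg3 to Zim1 CPM was 8.37 ± 0.473 with vehicle and 12.7 ± 1.29 with PTH, without overlap. Usp29, a ubiquitin protease gene that starts 146 bases from Peg3 and runs the other way, was higher too, at 6 to 29 counts per vehicle library and 34 to 79 per PTH library (log2 fold change 1.96, SE 0.459, adjusted p = 0.00403).

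Plagl1 (chr10:13060504-13131694, plus strand), a paternally expressed transcription factor that activates other imprinted genes, was at 277, 257, 266 and 279 CPM with PTH and at 242, 248, 269 and 233 CPM with vehicle. The treatments overlapped, and Plagl1 was not called (log2 fold change 0.12, SE 0.0664, adjusted p = 0.151), with its sign turned when scaled by library totals (-0.0026).

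Peg10 (chr6:4747306-4760517, plus strand) is a retrotransposon-derived gene of the paternal allele with a role in the placenta. It was at 44.3, 34.4, 38.3 and 43.5 CPM with PTH and at 17.3, 18.98, 22.3 and 28.5 CPM with vehicle. All PTH samples were above all vehicle samples (log2 fold change 0.88, SE 0.142, adjusted p = 3.18e-04). Sgce, which encodes epsilon-sarcoglycan and starts 98 bases away on the other strand, went in the opposite direction, from 73.9 ± 4.26 to 59.97 ± 9.08 CPM (log2 fold change -0.30, SE 0.101, adjusted p = 0.0284). The call for Sgce was lost without PTH replicate 3 (adjusted p = 0.0726) and without vehicle replicates 1, 2 or 3 (0.0741, 0.0533 and 0.0833). The ratio of Peg10 to Sgce CPM was 0.297 ± 0.0794 with vehicle and 0.673 ± 0.0372 with PTH, and did not overlap. Farther along this cluster Asb4 (log2 fold change 1.50, adjusted p = 0.00721) and Tfpi2 (0.50, adjusted p = 0.0201) were higher, at 13 to 176 and 147 to 287 counts per library. The call for Tfpi2 was lost without vehicle replicate 2 (adjusted p = 0.0619), with upper-quartile scaling (0.38, adjusted p = 0.0594) and with library totals (0.37, adjusted p = 0.0713). Ppp1r9a (log2 fold change 0.20), Pon2 (0.03) and Pon3 (-0.01) were not called.

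Mest and Ndn, both paternally expressed, were not called. Mest (chr6:30723547-30748465, plus strand), a hydrolase-fold protein of mesoderm, was at 1144, 724, 885 and 1050 CPM with PTH and at 873, 1001, 1023 and 955 CPM with vehicle. The PTH samples lay on both sides of the vehicle samples (log2 fold change -0.02, SE 0.125, adjusted p = 0.916), and without PTH replicate 2 the value was 0.10. Its neighbours Klf14 and Copg2 were tested. Klf14, a maternally expressed transcription factor, was higher at 2.74 ± 0.319 CPM with vehicle and 9.25 ± 1.33 CPM with PTH (log2 fold change 1.76, adjusted p = 1.30e-06). Copg2, a coat protein gene whose end overlaps that of Mest on the opposite strand by 912 bases, was not called (log2 fold change -0.23, adjusted p = 0.0593). Copg2 was called lower by edgeR without PTH replicate 1 (-0.32, adjusted p = 0.00359), with library totals (-0.36, adjusted p = 0.00245) and with upper-quartile scaling (-0.34, adjusted p = 0.00667).

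Ndn (chr7:62346569-62350262, plus strand), a MAGE family protein that limits cell proliferation, was at 78.3, 72.1, 74.3 and 77.5 CPM with PTH and at 78.3, 81.1, 81.2 and 75.01 CPM with vehicle. The treatments overlapped (log2 fold change -0.06, SE 0.0590, adjusted p = 0.420), but Ndn was called lower under library totals (-0.19, adjusted p = 0.0106) and upper-quartile scaling (-0.18, adjusted p = 0.0232). A lincRNA gene covers the whole Ndn gene on the opposite strand. Of the other genes of that cluster, Snrpn (log2 fold change 0.02), Mkrn3 (0.16) and Peg12 (-0.24) were not called, and Magel2 was too low to test. Peg12 was called lower by edgeR with library totals (-0.37, adjusted p = 0.0195) and upper-quartile scaling (-0.35, adjusted p = 0.0215).

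**Figure D4:**
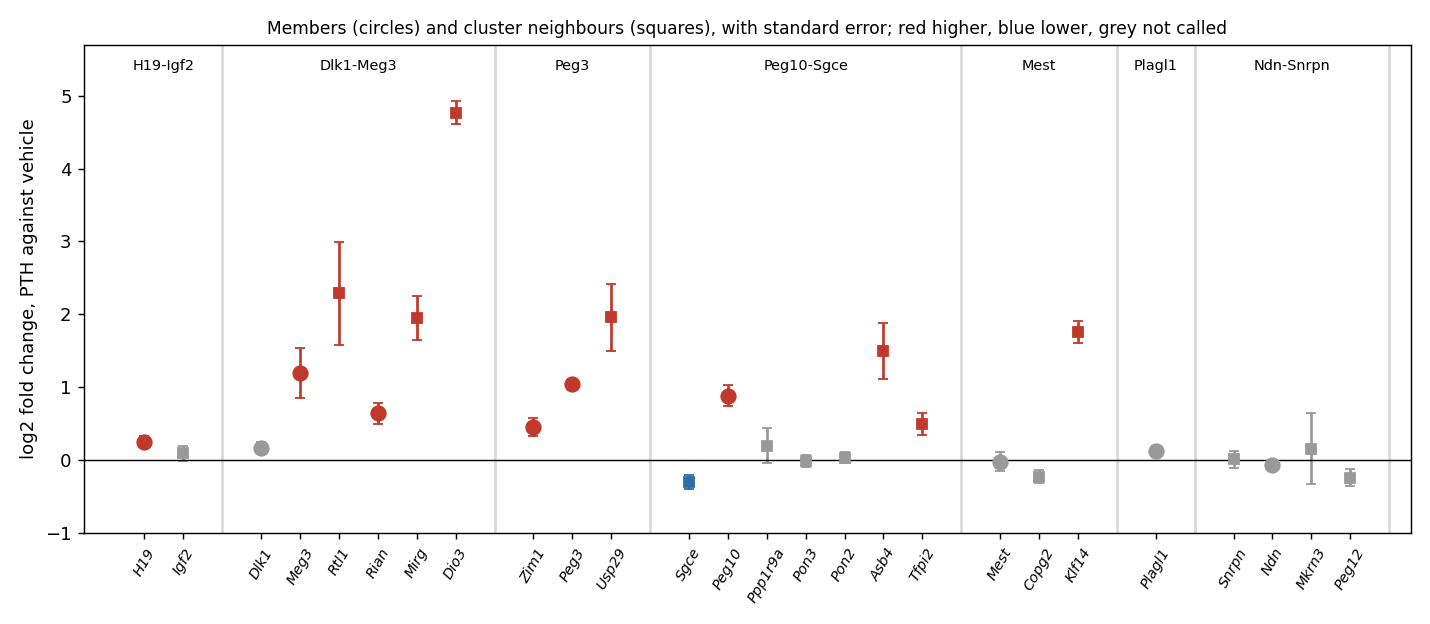
Log2 fold change of PTH against vehicle (vertical axis) with its standard error for the 10 members (circles) and the tested genes of their clusters (squares). Red was called higher, blue lower and grey not called. The Dlk1-Meg3 and Peg3 clusters hold 5 of 6 and 3 of 3 genes called higher, the Ndn-Snrpn cluster none of 4. The share called higher over all genes tested was 23.3%.

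By expressed allele, all 4 maternally expressed members (H19, Meg3, Rian and Zim1) were higher with PTH, with a median log2 fold change of 0.55, as were 2 of the 6 paternally expressed members (Peg3 and Peg10), with a median of 0.15. Of the 40 tested genes in a list of 48 other imprinted genes, 15 were higher, 4 were lower and 21 were not called (median log2 fold change 0.07), and 5 of 19 maternally and 10 of 21 paternally expressed genes were higher. Over all genes tested, 23.3% were called higher. Of the 4 maternally expressed members, Meg3 and Rian lie in the same domain. The treatments overlapped in Meg3, and H19 passed under 13 of 17 alternatives. The difference between the alleles was not tested.

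Outside the members' own clusters, 24 imprinted genes were tested, of which 8 were higher and 3 lower, a share near the 45.8% called in either direction over all genes tested. The largest rises were in Nap1l5, a paternally expressed gene of the nucleosome assembly family, at 2.61 ± 0.630 CPM with vehicle and 73.3 ± 5.98 CPM with PTH (log2 fold change 4.82, adjusted p = 2.07e-10), in Zdbf2, a paternally expressed zinc finger gene, at 6.37 ± 1.06 and 103 ± 13.04 CPM (4.02, adjusted p = 2.50e-10), and in Nnat, a small membrane protein, at 1.10 ± 0.206 and 4.67 ± 2.32 CPM (2.08, adjusted p = 3.75e-04). By log2 fold change, Nap1l5, Dio3 and Zdbf2 rose more than any of the 10 members. So did Rtl1, Nnat, Usp29, Mirg, Klf14 and Asb4, by less. Of the 39 genes with a RefSeq promoter among all 48 other imprinted genes, cluster neighbours and untested genes included, Zdbf2 was the 1 with the complete cAMP response element. The windows of Nap1l5, Dio3 and Nnat held neither this element nor the shorter TGACG, and the window of Dio3 lies partly within its longer GENCODE gene. The amino acid transporter gene Slc38a4 fell by 1.07 in log2 CPM (adjusted p = 1.64e-05), the lipid transfer protein gene Osbpl5 fell by 0.92 (adjusted p = 2.58e-07), and the chromatin gene Sfmbt2 fell by 0.73 (adjusted p = 0.00781).

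**Figure D5:**
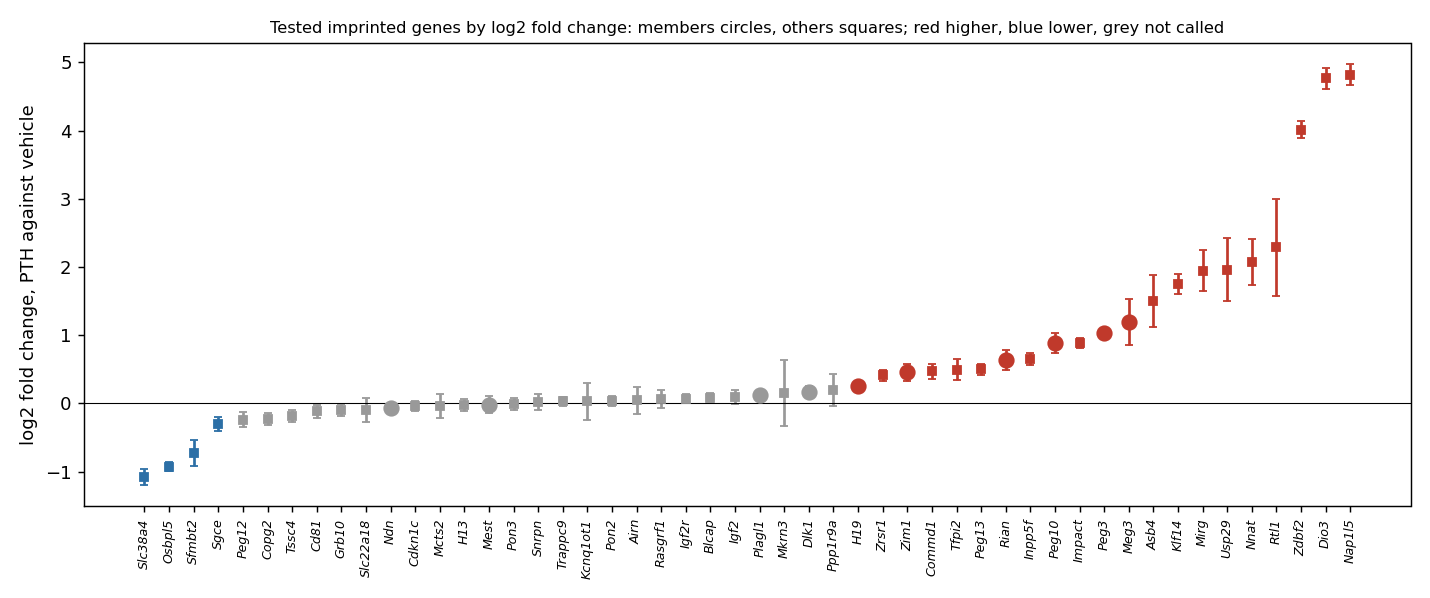
The 50 tested imprinted genes in order of log2 fold change of PTH against vehicle (vertical axis, with standard error), members as circles and the other genes as squares. Red was called higher, blue lower and grey not called. The members lie between -0.06 (Ndn) and 1.19 (Meg3), inside the range set by Slc38a4 (-1.07) and Nap1l5 (4.82).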

How the data were processed

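Poly(A) RNA libraries were sequenced as paired-end reads on an Illumina instrument. Per the methods and the labels, the authors aligned reads with HISAT2 to the mouse genome (GRCm38, mm10), assembled and quantified transcripts with StringTie, and converted these to gene counts, which they deposited as 1 table of counts, not normalized, and tested with DESeq2. Tool versions, annotation release and strand setting are not given in the sources used here. Here the counts of 4 PTH and 4 vehicle samples were filtered with filterByExpr (minimum count 10, minimum total 15), TMM-scaled and tested with edgeR 4.0.16 (quasi-likelihood, Benjamini-Hochberg adjustment, threshold 0.05). Every total count lay between 33605610 and 56090654. Simulated data tested the script before use. Exact two-sided permutation tests used all 70 assignments of log2(CPM + 0.1). Alternatives were DESeq2 1.42.0, other scalings, filters, halved counts, a replicate block and each sample left out. No sample pair matched within sampling noise. Coordinates and exon lengths are from GENCODE M21 (GRCm38); promoter and microRNA sequences are from RefSeq (GRCm38.p6).

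The members and gene lists were chosen with earlier results of these data known. The named genes were all members, their tested cluster neighbours, the 3 highest and 3 lowest log2 fold changes among other called imprinted genes, Tnfsf11, Pth1r and the 2 most abundant genes of each marker list. A neural marker gene and the sum of its list are not reported here. Of 48 other imprinted genes, 8 were not tested.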

Additional observations from a re-analysis of the deposited data

Results flagged for a closer look

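PTH replicate 2 stood apart from the other 3 PTH samples in Zim1, at 36.8 CPM against 25.5 to 26.3, a gap of 0.924 of the range of the group. The same replicate stood apart in Mkrn3, at 0.992 CPM against 0.443 to 0.487, a gap of 0.92 of the range, where the counts were 8 to 38 per library. These were 2 of the 64 gene and treatment groups examined for a sample far from the rest, and chance flags about 1 in 20. PTH replicate 2 is the smallest library, and it was the highest or the lowest PTH sample in each of the 10 members. The part of this library in these values was not tested.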

How the results depend on the processing

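Of the 6 members called higher, Meg3, Rian, Peg3 and Peg10 passed under all 17 alternatives, Zim1 under 16 (0.33 with library totals, adjusted p = 0.0579) and H19 under 13. Upper-quartile factors and library totals, which moved the median of all genes by -0.11 and -0.13 on the log2 scale, each called 1 member lower (Ndn) and 7 and 9 other imprinted genes lower; they gave 0.14 and 0.13 for H19 (not called), -0.0200 and -0.0351 for Igf2, -0.0970 and -0.1092 for Snrpn, and -0.0811 and -0.0944 for Pon2, and library totals gave -0.0026 for Plagl1. Without a filter on low counts Snrpn was -0.0204 and Pon2 -0.0020. Pon3 was 0.0039 with DESeq2 size factors and 0.0048 with halved counts. Leaving out each sample in turn gave -0.1223 to 0.1020 for Mest, -0.0753 to 0.0618 for Snrpn, -0.0202 to 0.0781 for Pon2, -0.0445 to 0.0649 for Pon3 and -0.1746 to 0.4094 for Mkrn3. A minimum log2 change of 1 beside the adjusted p left 2 members and 9 other imprinted genes higher, 1 other imprinted gene lower, and 1232 and 650 of all genes higher and lower. Same-numbered samples did not deviate together (correlations of residuals -0.0409 to 0.0274). With 4 samples a treatment this cannot settle whether they shared a culture or animal, which nothing states. With a replicate block 5 members were higher and 0 lower, and so were 15 and 4 other imprinted genes. That block called 3571 and 3432 of all genes higher and lower. H19 was the member not called (0.26, adjusted p = 0.0692 by edgeR). The cause of these shifts was not tested. With 4 samples a treatment, the spread of the PTH samples and low counts (Rtl1 at 0 to 360 per library, Usp29 at 6 to 79, Mkrn3 at 8 to 38) set the limits of precision.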
